A study of Homo sapiens with 12 samples.

Results

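The genes of insulin-type growth factor signalling through PI3K, AKT and mTOR were followed in INA-6 cells, a myeloma line of human origin that grows on interleukin-6, after solvent (DMSO), the Raf inhibitor SB590885 or the MEK inhibitor PD325901. The list held 36 genes, from the receptors to the translation factors at the end of the pathway. It was defined by gene symbol and chosen with earlier results of these data known, so shares of members called are descriptive. Expression was read from 12 Affymetrix HG-U133 Plus 2.0 arrays, 4 per treatment, as log2 values per probe set. Each gene was represented by its brightest probe set on average, among those paired with that symbol only, which gave 33 of the 36 genes, out of 19775 genes in all. PIK3CA, PIK3R2 and SGK3 had no such probe set and were not analysed here. All 3 groups were INA-6 cells grown in RPMI1640 with 10% fetal calf serum, penicillin and streptomycin, and 2 ng/ml interleukin-6, so the solvent control also received interleukin-6. The sources used here do not state concentrations or times, so SB590885 and PD325901 are compared as applied. The results describe 1 cell line.

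As background, insulin and insulin-like growth factors bind receptor tyrosine kinases that use IRS docking proteins to recruit PI3K, which makes the membrane lipid PIP3. PDPK1 and mTOR complex 2 then activate the kinases AKT and SGK, AKT restrains the TSC complex, and the small GTPase RHEB then activates mTOR complex 1, which drives translation through the S6 kinases and 4E-BP1. Raf, MEK and ERK form the parallel cascade from RAS, and both cascades are active in many myeloma cells. Arrays measure RNA, so phosphorylation and activity of these proteins were not measured, and fewer cells expressing a gene and less RNA per cell cannot be told apart.

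In both treatments INPP5D, the lipid phosphatase SHIP1 that removes a phosphate from PIP3, was the member that fell against DMSO in the test over all genes, on the probe set used. Its level was lower with PD325901 than with SB590885, a difference that passed only with the arrays paired by number (adjusted p = 0.000613, 0.0569 without pairs, limma). Between the inhibitors, RNA of GSK3B, EIF4EBP1 and PHLPP2 was higher and RNA of the catalytic subunit gene PIK3CG lower with SB590885 than with PD325901 (limma). None of these 4 calls held after each array was centred on its median, without SB590885 array 1 or 2, or without the arrays numbered 2, and all 4 passed with the arrays paired. Calls over all genes also fell in this contrast, from 389 higher and 169 lower with SB590885 to 209 and 98 after centring. They were 208 and 97 without SB590885 array 1, 171 and 110 without array 2, and 121 and 59 without the arrays numbered 2. The other members did not pass without the arrays paired by number, and AKT1, AKT2, MTOR and RPTOR passed in no contrast even then.

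Upstream sequences were taken from RefSeq (build GRCh38.p14), which held a start site for 30 of the 33 measured members. INPP5D and PIK3CG are shown because INPP5D was the member called against DMSO and PIK3CG was the catalytic subunit that separated the inhibitors. Each line gives the 250 bases before the start, on the strand of the gene, with the letters AGGAAGT or their reverse complement ACTTCCT in capitals.
INPP5D, chr2:233060092-233060341, plus strand: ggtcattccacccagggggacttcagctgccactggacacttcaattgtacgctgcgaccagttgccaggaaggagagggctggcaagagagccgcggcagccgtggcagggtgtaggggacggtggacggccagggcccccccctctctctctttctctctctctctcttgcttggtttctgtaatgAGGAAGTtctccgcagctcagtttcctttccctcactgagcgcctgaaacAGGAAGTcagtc
PIK3CG, chr7:106865229-106865478, plus strand: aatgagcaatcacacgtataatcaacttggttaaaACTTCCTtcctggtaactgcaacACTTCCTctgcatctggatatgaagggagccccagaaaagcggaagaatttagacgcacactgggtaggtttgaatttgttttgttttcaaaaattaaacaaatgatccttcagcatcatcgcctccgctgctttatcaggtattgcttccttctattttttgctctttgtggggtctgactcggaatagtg
AGGAAGT, a core that ETS-type factors can bind, was searched after these promoters had been looked at, on both strands, with exact letters. It occurred 2 times in each of these windows, at bases -62 to -56 and -12 to -6 before the start of INPP5D on the plus strand, and at -215 to -209 and -192 to -186 of PIK3CG on the minus strand. A gene can have several start sites, and the 30 members had 53 windows. AGGAAGT was in 6 of these 53 windows (11.3%, against 7.01% of all 35116 windows in the table), which belong to AKT2, INPP4B, INPP5D, PIK3CG and PIK3R4. It occurred 2 or more times in 3 of the 53, those of INPP5D and PIK3CG and 1 of INPP4B, a member near background, against 0.365% of all windows. A FOXO element, GTAAACA, was in 0 of the 53 windows against 2.98% of all, and the ETS element CCGGAAGT in 2 of the 53, both of TSC2, against 3.42% of all. The 2 TSC2 windows overlap and hold the same match. Counted by gene, CCGGAAGT was in 1 of the 30 members (3.33%), against 4.13% of all genes with a window. AGGAAGT was in 5 of the 30 (16.7%), against 8.47% of those genes. GSK3B and PHLPP2, which also differed between the inhibitors, had windows without AGGAAGT, and EIF4EBP1 had no window. Because AGGAAGT was searched after promoters had been looked at, its shares among the members are not a test. All of these are matches of letters, and whether any protein binds there was not measured.

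The labels number the arrays of a group 1 to 4, and arrays 3 and 4 of each group carry an R in another label, which is not explained there. Deviations of same-numbered arrays from their group means correlated at 0.544 to 0.913 over 12 pairs, so each test was also run with the number as a block, called the paired fit below. The spread of values over probe sets was 1.52 to 1.55 (SD) on the arrays without the R and 1.39 to 1.45 on those with it, lowest on PD325901 arrays 3 and 4. DMSO array 2 and PD325901 array 2 had a median of 11.8 and 11.5 over interferon response genes, against 6.80 to 8.47 on the other 10 arrays. The GAPDH control probe sets, read at the 3' end minus the 5' end, gave 0.371 ± 0.033 with DMSO, 0.440 ± 0.035 with SB590885 and 0.425 ± 0.057 with PD325901 (log2, SD, n = 4 each), and their part in the results was not tested. The ERK target DUSP6 fell from a mean of 9.62 with DMSO to 8.64 with SB590885 (adjusted p = 0.00639) and 6.97 with PD325901 (adjusted p = 4.6e-06, limma). Of 10 plasma cell markers 8 had a mean above 7.35, the 90th percentile of 39 genes restricted to other tissues, and CD27 and TNFRSF13B did not. Above that level also lay 1 of 7 B cell, 2 of 10 T and NK cell, 0 of 8 monocyte, 2 of 7 stromal, 1 of 6 endothelial and 2 of 4 erythroid markers. Of the 10 plasma cell markers 3 fell with SB590885 (SLAMF7, XBP1 and SDC1), and their part in the results below was not tested.

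Against DMSO, 1 of 33 members (3.03%) passed with SB590885, where 3.28% of all genes did, and 1 of 33 passed with PD325901, where 0.592% of all genes did (limma, Benjamini-Hochberg adjusted p under 0.05 over 19775 genes). The median change of the members was 0.02 with SB590885 and -0.06 with PD325901 on the log2 scale, against 0.00 for all genes in both. The paired fit called 14 members with SB590885 (42.4%, against 18.9% of all genes), 9 higher and 5 lower, where 9.09% and 9.84% of all genes were called in these directions. With PD325901 it called 8 members (24.2%, against 8.14% of all genes), all of them lower, where 6.18% of all genes were. The groups of 4 arrays did not overlap for 4 members with SB590885 (12.1%, against 10.2% of all genes) and for 5 with PD325901 (15.2%, against 4.08%), the latter all lower, where 2.68% of all genes were. The sign was the same in 4 of 4 pairs for 15 members with SB590885 (45.5%, against 34.1% of all genes) and 16 with PD325901 (48.5%, against 30.8%). Most members are well expressed, and well expressed genes were called more often than others. Among the 9698 genes whose mean exceeded 7.35 the paired fit called 35.1% with SB590885 and 15.7% with PD325901, and the fit without pairs 6.17% and 1.1%. Of the 28 members above that level the paired fit called 50% and 28.6%, and the fit without pairs 3.57% in each contrast. IRS2, PIK3R5, INPP4B, AKT1S1 and PHLPP1 lay at or under 7.35, where a signal cannot be told from the background of the array, and none of them passed in any contrast.

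**Figure D1:**
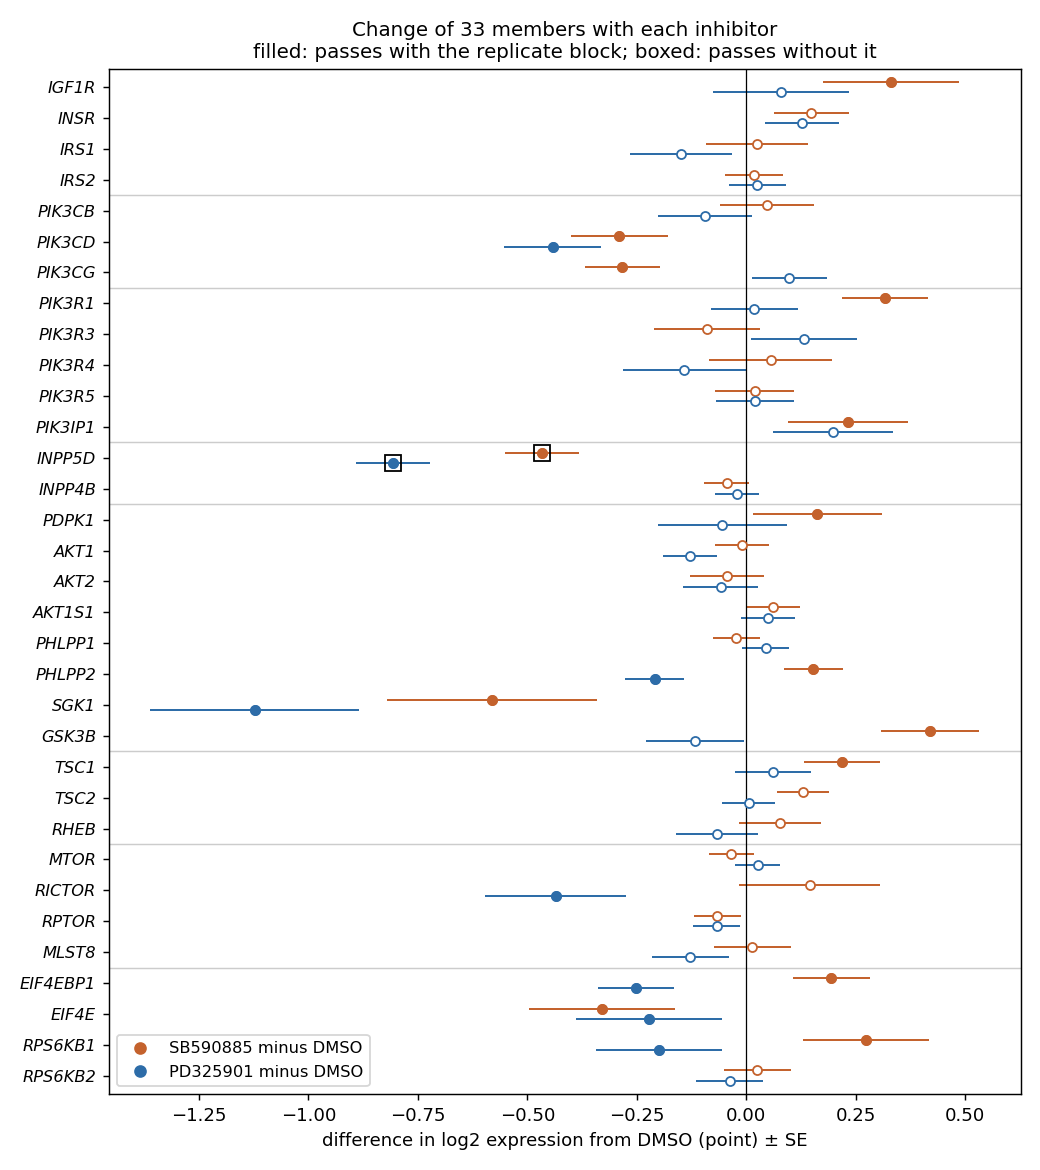
Difference in log2 expression from DMSO (point) with its standard error for the 33 measured members, ordered by role from receptors at the top to translation factors at the bottom, orange for SB590885 and blue for PD325901, n = 4 arrays per group. INPP5D, boxed, is the member that passed without the replicate block, and SGK1 has the lowest PD325901 value at -1.12.

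Of the receptors and docking proteins 0 of 4 passed in any contrast without pairs in limma, and at an unadjusted p under 0.05 none did. INSR, the insulin receptor, was at 10.28, 10.42 and 10.40 (means with DMSO, SB590885 and PD325901), with adjusted p = 0.542 and 0.947 against DMSO (limma). IGF1R, the receptor for insulin-like growth factors, was at 8.75, 8.34, 8.41 and 8.54 on the DMSO arrays, 9.03, 9.17, 8.65 and 8.51 with SB590885 and 8.91, 8.44, 8.41 and 8.59 with PD325901. Only SB590885 arrays 1 and 2 stood above the range of the other groups. The SB590885 difference of 0.33 ± 0.16 (SE) passed in the paired fit alone (adjusted p = 0.392, paired 0.0378) and was 0.56 on the arrays without the R and 0.10 on those with it. IRS1, a docking protein, was at 7.73, 7.77, 7.38 and 7.42 with DMSO, 7.63, 7.85, 7.47 and 7.46 with SB590885 and 7.57, 7.55, 7.33 and 7.26 with PD325901. Its values differed more between the arrays without and with the R than between treatments, and the difference between the inhibitors of 0.17 ± 0.12 (SE) passed in the paired fit alone (adjusted p = 0.666, paired 0.0204).

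Of the 3 catalytic subunits measured, the ubiquitous PIK3CB was called in neither fit, and the 2 that are enriched in blood cells, PIK3CD and PIK3CG, behaved differently. PIK3CD, the delta subunit, was at 8.93, 8.90, 9.01 and 9.23 with DMSO, 8.57, 8.49, 8.88 and 8.96 with SB590885 and 8.63, 8.55, 8.43 and 8.69 with PD325901. Every PD325901 array lay below every DMSO array, while SB590885 arrays 1 and 2 were low and arrays 3 and 4 came close to the DMSO values. The difference from DMSO was -0.44 ± 0.11 (SE) with PD325901 (adjusted p = 0.157, paired 0.00141) and -0.29 ± 0.11 with SB590885 (adjusted p = 0.235, paired 0.00966, limma).

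PIK3CG, the gamma subunit that acts downstream of G protein-coupled receptors, was at 9.08, 8.91, 8.93 and 8.90 with DMSO, 8.50, 8.70, 8.87 and 8.62 with SB590885 and 9.21, 9.11, 9.02 and 8.88 with PD325901. All SB590885 arrays lay below all others of both groups, and the DMSO and PD325901 ranges overlapped. SB590885 was lower than PD325901 by a difference of -0.38 ± 0.086 (SE; adjusted p = 0.0373, limma), 1.30-fold on the linear scale. That difference was -0.56 on the arrays without the R and -0.21 on those with it, and the test of that contrast by the R mark did not pass for any member. Against DMSO the SB590885 difference was -0.28 ± 0.086 (adjusted p = 0.116, paired 0.015). Another 2 PIK3CG probe sets above the median of all probe sets gave -0.14 and -0.24 for SB590885 against DMSO, in the same direction. Leaving out any of 9 of the 12 arrays ended the PIK3CG call between the inhibitors (adjusted p 0.0206 to 0.113), all but DMSO array 1, SB590885 array 3 and PD325901 array 4.

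Among regulatory subunits and the inhibitor of PI3K, PIK3R1, which encodes p85alpha, was at 8.32, 8.24, 8.14 and 8.12 with DMSO, 8.71, 8.68, 8.34 and 8.35 with SB590885 and 8.32, 8.29, 8.25 and 8.03 with PD325901. The SB590885 arrays lay above all arrays of both other groups, although arrays 3 and 4 by little. The difference was 0.32 ± 0.099 (SE) from DMSO (adjusted p = 0.123, paired 0.000969) and 0.30 ± 0.099 from PD325901 (adjusted p = 0.164, paired 0.00148). The other PIK3R1 probe set above the median of all probe sets gave 0.06 from DMSO and 0.05 from PD325901 for SB590885. PIK3R3, encoding p55gamma, was at 8.17, 8.56, 8.10 and 8.14 with DMSO, 8.11, 8.21, 8.15 and 8.13 with SB590885 and 8.48, 8.66, 8.14 and 8.21 with PD325901. DMSO array 2 and PD325901 arrays 1 and 2 were high, and the difference between the inhibitors of -0.22 ± 0.12 (SE) passed in the paired fit alone (paired adjusted p = 0.0403, 0.519 without pairs).

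PIK3R4, the VPS15 subunit of the class III lipid kinase, was at 9.87, 9.93, 9.53 and 9.53 with DMSO, 9.92, 9.89, 9.54 and 9.73 with SB590885 and 9.85, 9.75, 9.33 and 9.37 with PD325901. In every group arrays 3 and 4 lay below arrays 1 and 2, and within that pattern SB590885 exceeded PD325901 in 4 of 4 pairs, by 0.20 ± 0.14 (SE; adjusted p = 0.705, paired 0.0143). PIK3IP1, an inhibitor of the catalytic subunit, was at 7.10, 7.20, 7.53 and 7.60 with DMSO, 7.33, 7.61, 7.80 and 7.62 with SB590885 and 7.45, 7.33, 7.73 and 7.72 with PD325901. Its R arrays were the higher ones, and it exceeded DMSO in 4 of 4 pairs with each inhibitor, by 0.23 ± 0.14 with SB590885 (adjusted p = 0.559, paired 0.0193) and 0.20 ± 0.14 with PD325901 (adjusted p = 0.953, paired 0.0751). PIK3R5, a partner of PIK3CG, stayed between 6.85 and 7.21 on all arrays.

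The phosphatase INPP5D was at 8.60, 8.69, 8.50 and 8.78 on the 4 DMSO arrays, 8.06, 8.16, 8.18 and 8.30 with SB590885 and 7.79, 8.01, 7.65 and 7.89 with PD325901. The 3 groups did not overlap, with DMSO highest and PD325901 lowest. INPP5D fell by 0.47 ± 0.084 (SE) on the log2 scale with SB590885, 1.38-fold on the linear scale (adjusted p = 0.013, paired 6.19e-05), and by 0.81 ± 0.084 with PD325901, 1.75-fold (adjusted p = 0.000894, paired 7.93e-07, limma). Both differences were present in each set of arrays, at -0.53 without the R and -0.40 with it for SB590885, and at -0.74 and -0.87 for PD325901. SB590885 exceeded PD325901 by 0.34 ± 0.084, with a 95% interval of 0.16 to 0.52, which passed in the paired fit (adjusted p = 0.000613) and missed the threshold without it (0.0569).

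Both INPP5D calls held with each of the 12 arrays left out in turn (adjusted p 0.00988 to 0.0461 for SB590885 and 0.000729 to 0.00588 for PD325901), and without all 3 arrays numbered 2 the PD325901 call held (adjusted p = 0.00973) and the SB590885 call did not (0.0967). The calls rest on 1 probe set, 203332_s_at. The other INPP5D probe set above the median of all probe sets, 203331_s_at, averaged 7.07, under the 7.35 of genes restricted to other tissues, and gave -0.08 with SB590885 and -0.09 with PD325901. INPP4B, the other lipid phosphatase listed, lay near background at 6.30 to 6.50.

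**Figure D2:**
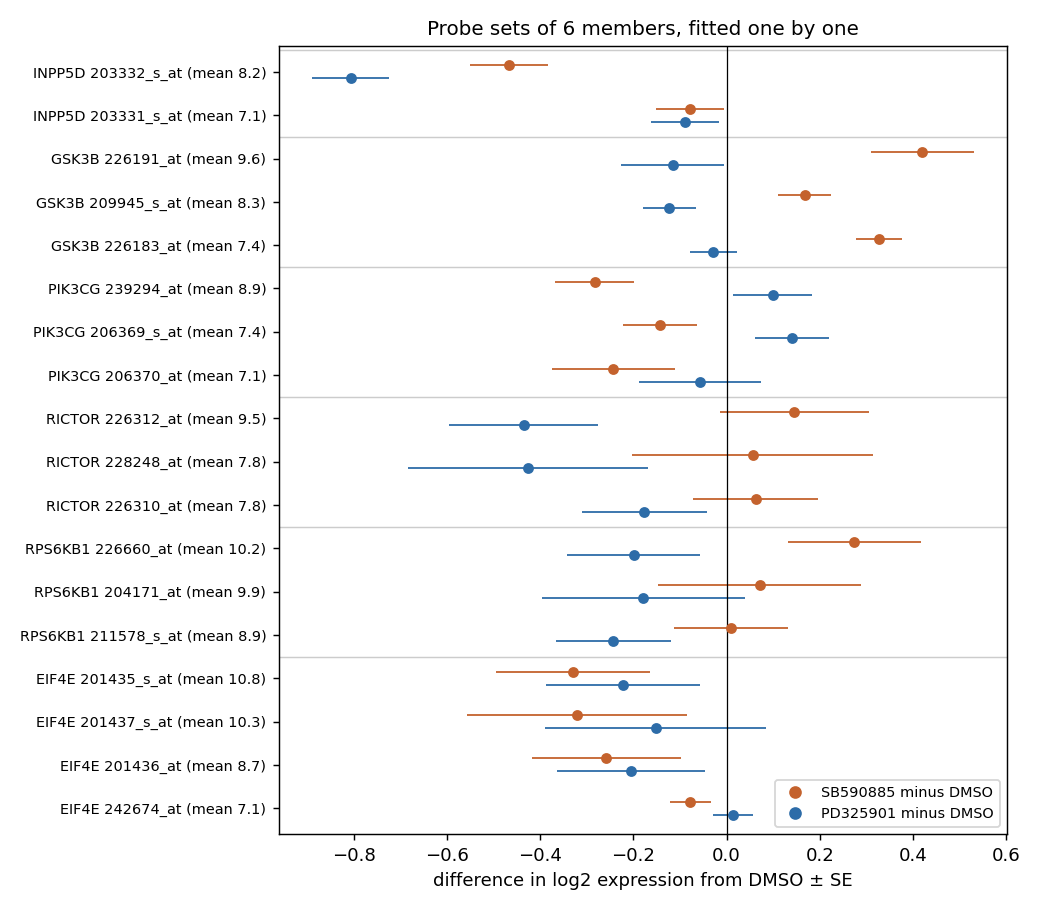
Difference in log2 expression from DMSO ± SE for each probe set, at or above the median of all probe sets, of 6 members, orange for SB590885 and blue for PD325901, with the mean over 12 arrays in the label. The brighter INPP5D probe set lies at -0.47 and -0.81 and the dimmer at -0.08 and -0.09, while the GSK3B probe sets all lie to the right of 0 with SB590885 and the RICTOR probe sets to the left with PD325901.

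The kinase that activates AKT, PDPK1, was at 10.73, 10.61, 10.43 and 10.39 with DMSO, 10.93, 10.89, 10.39 and 10.59 with SB590885 and 10.78, 10.63, 10.20 and 10.34 with PD325901. Arrays 1 and 2 were the higher ones in every group, and SB590885 exceeded PD325901 in 4 of 4 pairs by 0.22 ± 0.15 (SE; adjusted p = 0.677, paired 0.0107). AKT1 and AKT2, the central kinases, differed from DMSO by at most 0.13 in either contrast, with 95% intervals of -0.26 to 0.01 for AKT1 and -0.24 to 0.13 for AKT2 with PD325901.

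PHLPP2, a phosphatase that removes an activating phosphate from AKT, was at 8.25, 8.09, 8.14 and 8.07 with DMSO, 8.38, 8.41, 8.22 and 8.16 with SB590885 and 8.03, 7.95, 7.88 and 7.85 with PD325901. The DMSO values lay between the inhibitors, overlapping SB590885 and not PD325901. SB590885 exceeded PD325901 by 0.36 ± 0.067 (SE), 1.29-fold (adjusted p = 0.0142, paired 8.22e-05), with 0.40 on the arrays without the R and 0.32 on those with it. The difference from DMSO was 0.15 ± 0.067 with SB590885 (adjusted p = 0.332, paired 0.0317) and -0.21 ± 0.067 with PD325901 (adjusted p = 0.354, paired 0.0126). Its relative PHLPP1 lay between 6.13 and 6.39 on all arrays, near background.

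SGK1, a kinase related to AKT that mTOR complex 2 activates, had the largest fitted difference of any member. It was at 12.38, 11.90, 12.13 and 11.39 with DMSO, 11.38, 11.35, 11.63 and 11.10 with SB590885 and 11.28, 10.94, 10.91 and 10.18 with PD325901. PD325901 arrays lay below all DMSO arrays, array 4 was the lowest of each group, and the SB590885 range overlapped DMSO through DMSO array 4. The difference from DMSO was -1.12 ± 0.24 (SE) with PD325901, 2.18-fold lower (adjusted p = 0.0752, paired 6.73e-06), and -0.58 ± 0.24 with SB590885 (adjusted p = 0.283, paired 0.000842). The PD325901 difference passed after DMSO array 4 or PD325901 array 1 was left out, and was -1.03 without the R and -1.21 with it.

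GSK3B, a kinase that AKT inhibits by phosphorylation, was at 9.69, 9.61, 9.46 and 9.37 with DMSO, 10.14, 10.11, 9.76 and 9.80 with SB590885 and 9.60, 9.52, 9.24 and 9.31 with PD325901. All SB590885 arrays lay above all arrays of both other groups. SB590885 exceeded PD325901 by 0.54 ± 0.11 (SE), 1.45-fold (adjusted p = 0.0257, paired 2.48e-06), by 0.57 without the R and 0.50 with it. Against DMSO the difference of 0.42 ± 0.11 missed the threshold (adjusted p = 0.0677) and passed in the paired fit (2.93e-05). Other GSK3B probe sets above the median of all probe sets gave 0.17 and 0.33 for SB590885 against DMSO.

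**Figure D3:**
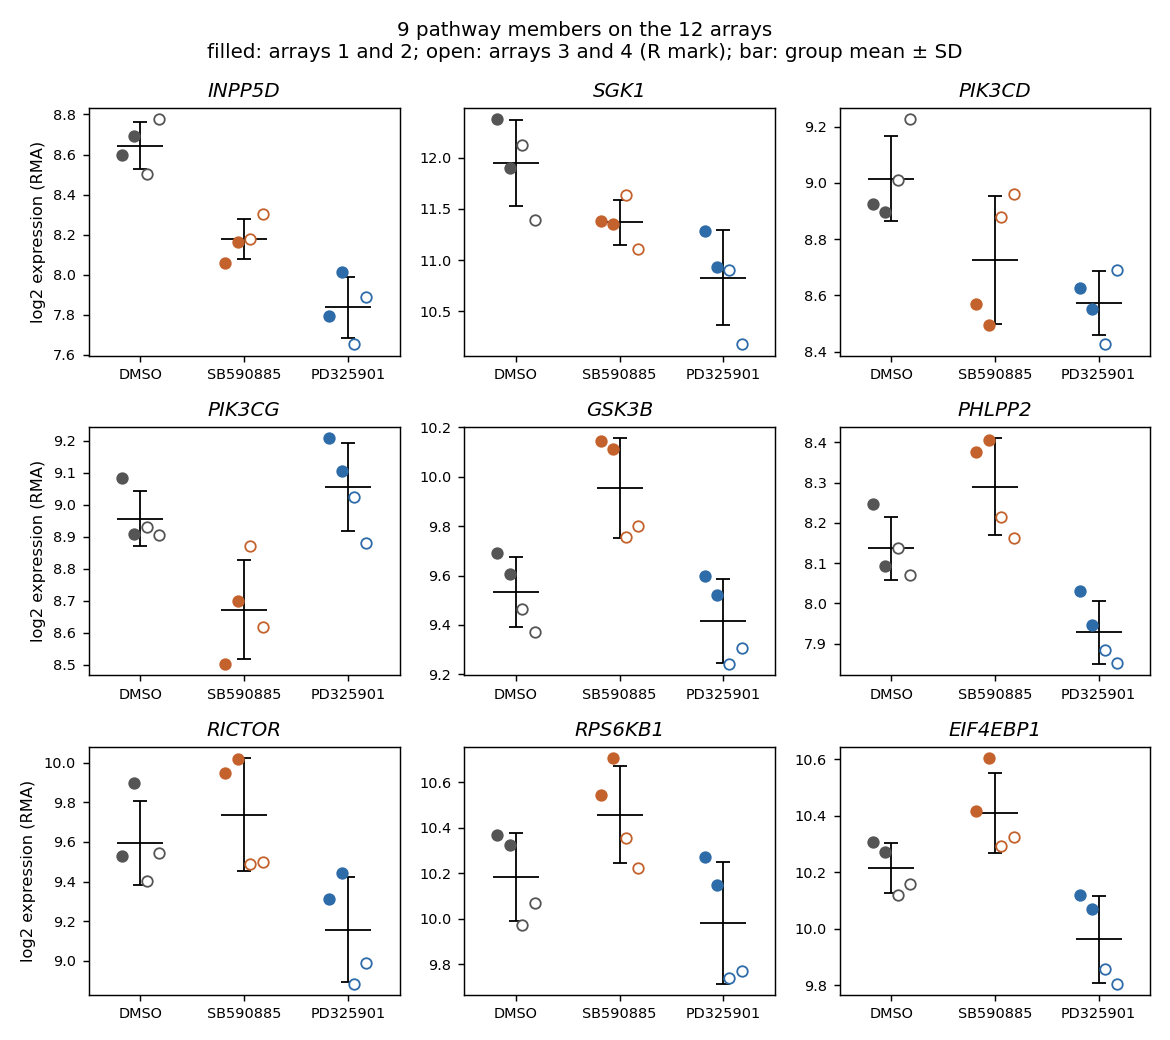
Log2 expression of 9 members on each of the 12 arrays, by treatment, filled for arrays 1 and 2, open for arrays 3 and 4 (R mark), with the group mean and SD. INPP5D separates the 3 groups, GSK3B and PIK3CG separate SB590885 from the other groups, and in RICTOR, RPS6KB1 and EIF4EBP1 the open points lie low with each inhibitor.

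The TSC complex, which switches RHEB off, and RHEB itself differed little. TSC1 was at 9.15, 9.04, 9.07 and 8.88 with DMSO, 9.37, 9.40, 9.05 and 9.20 with SB590885 and 9.26, 9.07, 9.03 and 9.04 with PD325901. SB590885 arrays 1 and 2 were the highest, and the difference from DMSO of 0.22 ± 0.087 (SE) passed in the paired fit alone (adjusted p = 0.257, paired 0.0161). RHEB was at 12.01, 12.19, 11.86 and 11.95 with DMSO, 12.12, 12.21, 12.01 and 11.995 with SB590885 and 12.08, 12.10, 11.79 and 11.78 with PD325901. SB590885 exceeded PD325901 in 4 of 4 pairs by 0.14 ± 0.094 (adjusted p = 0.656, paired 0.0491), and of its 5 other probe sets above the median of all probe sets 4 had that sign. TSC2 did not pass in either fit, at means of 7.46, 7.59 and 7.47 with DMSO, SB590885 and PD325901.

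In the mTOR complexes, RICTOR, the subunit that defines mTOR complex 2, was called in the paired fit, and MTOR, RPTOR and MLST8 were not. RICTOR was at 9.53, 9.90, 9.40 and 9.54 with DMSO, 9.95, 10.02, 9.49 and 9.50 with SB590885 and 9.31, 9.44, 8.89 and 8.99 with PD325901. SB590885 exceeded PD325901 by a similar amount in each pair, from 0.51 to 0.64, and on average by 0.58 ± 0.16 (SE), which missed the threshold without pairs (adjusted p = 0.0889) and passed with them (1.77e-05). From DMSO it differed by -0.44 ± 0.16 with PD325901 (adjusted p = 0.51, paired 0.000486) and by 0.15 ± 0.16 with SB590885 (paired adjusted p = 0.129). MTOR stayed between 9.07 and 9.29 on all 12 arrays, and the 95% intervals of its differences from DMSO were -0.15 to 0.08 with SB590885 and -0.09 to 0.14 with PD325901. RPTOR, the subunit of mTOR complex 1, lay between 7.85 and 8.09.

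At the translation end, EIF4EBP1, the 4E-BP1 repressor that mTOR complex 1 inactivates, was at 10.31, 10.27, 10.12 and 10.16 with DMSO, 10.42, 10.60, 10.29 and 10.32 with SB590885 and 10.12, 10.07, 9.86 and 9.81 with PD325901. PD325901 arrays lay below all others, PD325901 array 1 by less than 0.01, and SB590885 overlapped the top of DMSO. SB590885 exceeded PD325901 by 0.45 ± 0.088 (SE), 1.36-fold (adjusted p = 0.0194, paired 2.5e-05), by 0.42 without the R and 0.48 with it. Against DMSO the difference was 0.19 ± 0.088 with SB590885 (adjusted p = 0.353, paired 0.012) and -0.25 ± 0.088 with PD325901 (adjusted p = 0.443, paired 0.00592).

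RPS6KB1, the S6 kinase that mTOR complex 1 activates, was at 10.37, 10.32, 9.97 and 10.07 with DMSO, 10.55, 10.71, 10.36 and 10.22 with SB590885 and 10.27, 10.15, 9.74 and 9.77 with PD325901. In each pair the order was SB590885, DMSO, PD325901 from high to low, and arrays 3 and 4 were low in every group. SB590885 exceeded PD325901 by 0.47 ± 0.14 (SE; adjusted p = 0.123, paired 4.18e-05). Another 2 RPS6KB1 probe sets above the median of all probe sets gave 0.249 and 0.252 for that contrast. For SB590885 against DMSO they gave 0.009 and 0.071, where the probe set used gave 0.27. EIF4E, the cap-binding factor that 4E-BP1 holds back, was at 11.20, 11.20, 10.77 and 10.77 with DMSO, 10.81, 10.79, 10.56 and 10.46 with SB590885 and 11.05, 11.06, 10.54 and 10.40 with PD325901. Both inhibitors lay below DMSO in 4 of 4 pairs, by -0.33 ± 0.17 with SB590885 (adjusted p = 0.446, paired 0.000975) and -0.22 ± 0.17 with PD325901 (adjusted p = 0.975, paired 0.0283), and 3 other EIF4E probe sets gave -0.32 to -0.08 with SB590885. RPS6KB2, the second S6 kinase gene, passed in no contrast.

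Compared directly, 4 of 33 members (12.1%) differed between SB590885 and PD325901, where 2.82% of all genes did, 1.97% higher and 0.855% lower with SB590885 (limma, adjusted p under 0.05). Among genes with a mean above 7.35 the shares were 14.3% of 28 members and 5.26% of all. The paired fit called 14 members, 12 higher and 2 lower with SB590885 (42.4%, against 18.1% of all genes, 12.4% higher and 5.73% lower), and among those above 7.35 it called 50% of the members and 33.9% of the genes. The members' median difference was 0.14, against 0.00 for all genes, and 25 of 33 were higher with SB590885. Above 7.35, 24 of 28 members (85.7%) were higher with SB590885, against 59.8% of the genes above that level. The groups did not overlap for 7 members (21.2%, against 7.18% of all genes, 4.68% higher and 2.5% lower), 6 of them higher with SB590885 (GSK3B, RICTOR, EIF4EBP1, PHLPP2, INPP5D and PIK3R1) and 1 lower (PIK3CG). The sign was the same in 4 of 4 pairs for 18 members (54.5%, against 29.9% of all genes), 17 of them higher with SB590885, where 18.2% of all genes were.

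The PD325901 arrays with the R had the lowest spread of values, and well expressed genes shifted together there. On the arrays with the R, the median difference between SB590885 and PD325901 was 0.09 for the genes above 7.35 and 0.20 for the 28 members above that level. There 22 of the 28 members were higher with SB590885 (78.6%, against 71.0% of the genes above 7.35). On the arrays without the R the median difference was 0.00 for the genes above 7.35 and 0.10 for the members. Of the 28 members 21 were higher with SB590885 on those arrays (75%, against 49.6% of the genes above 7.35). After quantile normalisation, which gives all arrays the same spread, the 4 members that differed between the inhibitors still passed, with PIK3R1, RICTOR and RPS6KB1 in addition. Calls over all genes rose as well, from 389 higher and 169 lower with SB590885 to 877 and 679. The part of the spread in the members' differences was not tested. After each array was centred on its median, 0 members passed between the inhibitors, and 9 had an unadjusted p under 0.05 (limma adjusted p 0.0578 for PHLPP2, 0.0685 for EIF4EBP1, 0.0773 for GSK3B and 0.0805 for PIK3CG). Without SB590885 array 1 or SB590885 array 2, 0 members passed in limma (10 and 9 at an unadjusted p under 0.05), without PD325901 array 3 PHLPP2 alone passed, and without PD325901 array 4 PHLPP2 and PIK3CG passed. At an unadjusted p under 0.05, 9 members differed with all arrays, 8 higher and 1 lower.

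**Figure D4:**
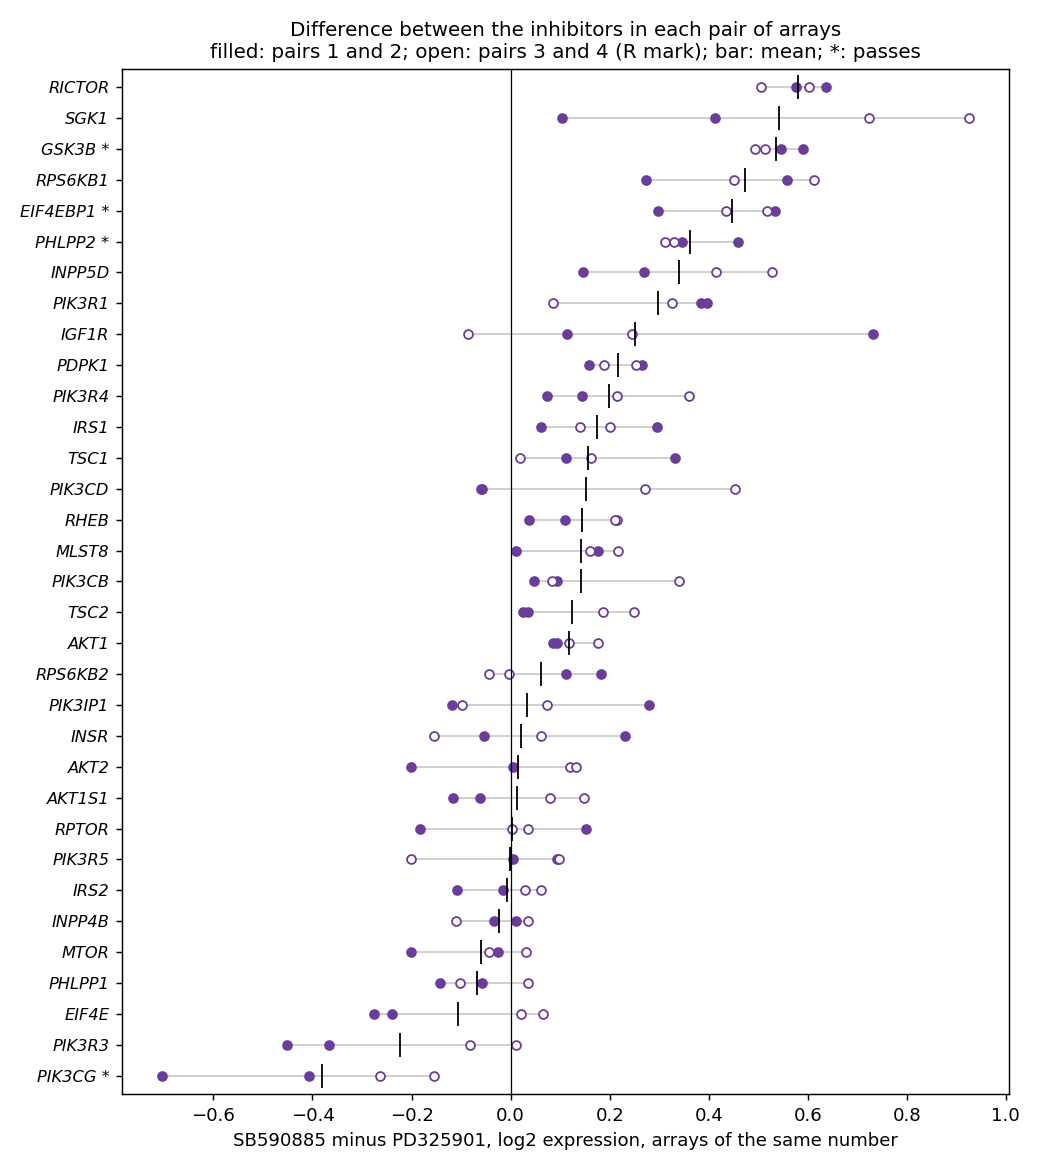
SB590885 minus PD325901 in log2 expression for each pair of same-numbered arrays (points), filled for pairs 1 and 2 and open for pairs 3 and 4 (R mark), with the mean as a bar, for the 33 members in order of the mean. RICTOR at the top lies between 0.51 and 0.64 in the 4 pairs, and PIK3CG at the bottom is below 0 in all 4; an asterisk marks members that passed without the replicate block.

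Across treatments, 10 members were higher on both arrays without the R than on both arrays with it in all 3 groups (IRS1, PIK3CB, PIK3R1, PIK3R4, PDPK1, GSK3B, RHEB, EIF4EBP1, EIF4E and RPS6KB1), and 5 were lower (IRS2, PIK3R5, PIK3IP1, TSC2 and MLST8). The other 18 did neither. The share of all genes with such a shift was not computed, so these counts are not a trait of the members. The shift between the array sets reached 0.43 for EIF4E and 0.37 for RPS6KB1, larger than the differences of these members from DMSO.

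The wider pathway was read from 110 further genes, of which 104 were measured. With SB590885 6 rose and 2 fell against DMSO, with PD325901 1 rose and 1 fell, and 5 were higher and 1 lower with SB590885 than with PD325901 (limma). These are 7.69%, 1.92% and 5.77% of the 104, against 3.28%, 0.592% and 2.82% of all genes and 6.17%, 1.1% and 5.26% of the genes above 7.35. The paired fit called 31.7%, 11.5% and 32.7% of the 104, against 18.9%, 8.14% and 18.1% of all genes and 35.1%, 15.7% and 33.9% of those above 7.35. Their median change was 0.03, -0.03 and 0.08 in these 3 contrasts, against 0.00 for all genes in each. Of 33 measured nutrient and energy inputs to mTOR complex 1, 4 rose and 1 fell with SB590885 (15.2%, against 3.28% of all genes and 6.17% of those above 7.35). With pairs 8 were higher and 4 lower (36.4%, against 18.9% of all genes and 35.1% of those above 7.35). Those that rose include the stress-induced inhibitor SESN2 by 1.02 ± 0.11 (SE; adjusted p = 0.0013) and RRAGC, a RAG GTPase of the amino acid branch, by 0.71 ± 0.097 (adjusted p = 0.00412). SESN1 also rose, by 0.34 ± 0.069 (adjusted p = 0.0213), and LARS1, the leucyl-tRNA synthetase, fell by 0.43 ± 0.088 (adjusted p = 0.0216). With PD325901 0 of these 33 passed in limma with or without pairs (10 and 0 at an unadjusted p under 0.05), and SESN2 differed by -0.02 ± 0.11.

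Of 9 partners of the mTOR complexes, DEPTOR, an inhibitor of mTOR, rose by 1.03 ± 0.14 (SE) with PD325901 (adjusted p = 0.00501), from a mean of 8.26 to 9.29, and RHEBL1, a relative of RHEB, fell by 0.65 ± 0.10 (adjusted p = 0.0138). With SB590885 DEPTOR was at 8.61 and RHEBL1 at 8.33, and neither passed against DMSO without pairs. DEPTOR was higher than DMSO by 0.35 ± 0.14 with SB590885, which passed with pairs (adjusted p = 0.27, paired 0.00205), and SB590885 was lower than PD325901 by a difference of -0.68 ± 0.14 (adjusted p = 0.0262, limma). Of 19 AKT partners and substrates, WNK1 rose by 0.32 ± 0.048 with SB590885 (adjusted p = 0.00582), and HK2, a hexokinase that AKT signalling raises in many cells, fell by 0.78 ± 0.11 (adjusted p = 0.00481). With PD325901 HK2 fell by 0.41 ± 0.11, which passed with pairs alone (limma adjusted p = 0.211, paired 0.00756). The HK2 difference between the inhibitors also passed with pairs alone (limma adjusted p = 0.115, paired 0.00567). TRIB3, a stress-induced pseudokinase that can bind AKT, was at 9.78, 10.17 and 9.25 with DMSO, SB590885 and PD325901 and differed between the inhibitors by 0.92 ± 0.12 (adjusted p = 0.00215). Of 22 translation and growth outputs, SREBF2, which drives sterol synthesis, rose by 0.29 ± 0.055 with SB590885 (adjusted p = 0.0179). Of 21 upstream adaptors and other lipid kinases 0 passed in any contrast in limma without pairs (2, 0 and 3 at an unadjusted p under 0.05 with SB590885, with PD325901 and between them). With pairs 6, 3 and 5 did (28.6%, 14.3% and 23.8%). The shares were 18.9%, 8.14% and 18.1% of all genes and 35.1%, 15.7% and 33.9% of those above 7.35.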

How the data were processed

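RNA of 12 INA-6 samples, 4 per treatment, was measured on Affymetrix arrays from 100 ng of total RNA. The deposited values are log2 expression per probe set, made by the authors with RMA in R 3.0.1, per the submitters' processing notes; nothing used here states whether the arrays were normalised together. Array medians lay between 6.88 and 6.97, and the lowest values between 5.85 and 6.01. Of 54675 probe sets, 62 controls were left out and 41091 were paired with 1 symbol, 1801 with several and 11721 with none. Replicate arrays never held identical values for a gene.

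The tests were made in limma 3.58.1 (R 4.3.3) with 1 mean per group over all 12 arrays (empirical Bayes moderation, Benjamini-Hochberg adjustment over 19775 genes); an adjusted p comes from this fit unless the sentence names the paired fit, a normalisation or arrays left out, which were limma fits of the same form, ± is SE unless SD is written, and 95% intervals use the moderated spread. The arrays are biological replicates per the design text, whose number limits the precision of each p. Numbers were taken to pair arrays because same-numbered arrays deviated together in all 12 pairs, and 12 of 12 arrays correlated best with their own number. Values on every array are given for members that passed in any contrast, paired or not, or were among the 6 largest differences of a contrast, and up to 4 genes by smallest p for each other list. The members and lists were chosen with earlier results of these data known. Levels are not compared between probe sets. Alternatives changed the block, the R mark, the centring, the normalisation, the filter, the probe set and the arrays used.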

Additional observations from a re-analysis of the deposited data

Results flagged for a closer look

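Of 99 groups of 4 arrays (33 members in 3 treatments), 7 held an array that stood apart from the other 3 by Dixon's criterion, where chance flags about 1 in 20 groups. In DMSO these were PIK3CG on array 1, at 9.08 against 8.90 to 8.93, PIK3R3 on array 2, at 8.56 against 8.10 to 8.17, PHLPP1 on array 2, at 6.26 against 6.28 on the others, and IRS2 on array 3, at 6.69 against 6.53 to 6.55. In SB590885 AKT2 was at 8.74 on array 2 against 8.70. In PD325901 TSC1 was at 9.26 on array 1 against 9.03 to 9.07, and TSC2 at 7.49 on array 3 against 7.46. PIK3R3 was also highest on array 2 with PD325901 (8.66) and with SB590885 (8.21). Of these genes PIK3CG alone passed a test without pairs, and its call between the inhibitors held without DMSO array 1.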

How the results depend on the processing

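For SB590885 against DMSO, the count of members called was 1, and became 14 with the replicate block, 11 with a term for the R mark, 9 on the arrays without the R, 2 on those with it, 7 after quantile normalisation, 0 with probe sets without a shared mark and 0 without the arrays numbered 2. With each array left out it stayed between 1 and 1. With the mean of all probe sets of a gene it was also 1, GSK3B in place of INPP5D (adjusted p = 0.119). The calls over all genes moved as well in that contrast, from 315 higher and 334 lower to 1614 and 1717 with the R term. They were 1290 and 1347 on the arrays without the R, 427 and 639 on those with it, and 869 and 763 after quantile normalisation. Leaving out the arrays numbered 2 gave 41 and 37, and probe sets without a shared mark gave 246 and 221 of 16788 genes. For PD325901 against DMSO the count was 1, and became 8 with the replicate block, 8 with a term for the R mark, 2 on the arrays without the R, 6 on those with it, 2 after quantile normalisation, 2 with an intensity trend and 0 with probe sets without a shared mark; leaving out single arrays gave 1 to 2, with SGK1 added. Between the inhibitors the count was 4, and became 14 with the replicate block, 12 with a term for the R mark, 8 and 9 within the array sets, 7 after quantile normalisation, 2 with the mean of all probe sets, 0 after centring and 0 without the arrays numbered 2; leaving out single arrays gave 0 to 4. Probe sets without a shared mark covered 29 of the 33 members and left out both INPP5D probe sets described above. Where limma called 0 members, 4 to 10 had an unadjusted p under 0.05. For PD325901 against DMSO the calls over all genes went from 17 higher and 100 lower to 289 and 1000 with the R term. They were 73 and 113 on the arrays without the R, 112 and 967 on those with it, and 175 and 176 after quantile normalisation. An intensity trend gave 17 and 88. Between the inhibitors they went from 389 higher and 169 lower to 2237 and 950 with the R term. They were 1261 and 1097 on the arrays without the R, 1448 and 322 on those with it, and 877 and 679 after quantile normalisation. Centring gave 209 and 98, the mean of all probe sets 362 and 179, and leaving out the arrays numbered 2 gave 121 and 59. The cause of these changes in the counts of members and of all genes was not tested. For the differences that passed with or without the block, 700 of those under the other settings kept direction and side of the threshold. Of the rest, 92 newly passed, 35 no longer passed and 1 turned sign. The last was RHEB between the inhibitors, at -0.0098 with probe sets without a shared mark. Differences outside that set turned sign too, such as PIK3CD between the inhibitors, from 0.15 to -0.058 on the arrays without the R. Single probe sets, an alternative chosen after seeing the data, turned the sign in 13 of 48 comparisons of a member that had another probe set above the median. Of the differences that passed with or without the block, RHEB turned to -0.0098 in the same contrast, PDPK1 with SB590885 to -0.036 and EIF4E with PD325901 to 0.014. Of the others named above, RHEB with SB590885 ranged down to -0.099, with 1 of 5 other probe sets in the direction of the main one, and PIK3CG with PD325901 to -0.057.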
